A study of Mus musculus with 18 samples.

Results

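Fatty acid oxidation and ketone use are 2 routes by which a cell can make acetyl-CoA for its mitochondria without glucose. Their genes were examined as a list of 35 mouse genes, chosen by symbol, among the 54532 genes counted in cones sorted from retinas of BALB/c and C57BL/6J mice. Each of the 35 symbols matched 1 gene. The study asked whether cones that carry extra Txnip, the thioredoxin-interacting protein, lean on fuels other than glucose. To probe lipid and ketone use it knocked down Cpt1a and Oxct1 in retinas of rd1 mice, whose cones degenerate. Neither knockdown lessened the gain in cone survival from Txnip, whereas knockdown of Ldhb did. The cones counted here come from strains that the study used as wild type, and the values are RNA levels.

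Each of the 18 libraries came from 1 retina, from which 1000 cones were sorted by the fluorescence of a nuclear histone fusion protein (H2BGFP). BALB/c mice, an albino strain, were taken at postnatal day 21 and gave 6 control and 6 Txnip libraries. C57BL/6J mice, a pigmented strain that lacks a working Nnt (a mitochondrial transhydrogenase), were taken at postnatal day 35 and gave 3 control and 3 Txnip libraries. All eyes, controls included, had received the vector AAV8-SynP136-H2BGFP as newborns. The Txnip eyes had also received AAV8-RedO-Txnip, in which the human red opsin promoter drives Txnip, so the 2 conditions differ by a whole vector and not by its insert alone. Strain and age go together throughout, so that a difference between the strains cannot be told apart from one between ages. The labels do not say which retinas came from the same mouse, so the p-values measure the spread between libraries, which may be technical in part.

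Long-chain fatty acids enter the cell with the help of carriers such as Cd36, are held by binding proteins such as Fabp3, and are activated to acyl-CoA by the Acsl enzymes. The carnitine shuttle (Cpt1, Slc25a20, Cpt2) moves the acyl group into the mitochondrion, where each round of beta-oxidation runs through an acyl-CoA dehydrogenase, a hydratase, a second dehydrogenase and a thiolase, and the flavoproteins Etfa, Etfb and Etfdh pass the electrons on to the respiratory chain. Peroxisomes shorten very long chains with a parallel set of enzymes, and ketone bodies are turned back into acetyl-CoA by Bdh1, Oxct1 and Acat1. Photoreceptors shed membrane rich in fatty acids every day, and the retinal pigment epithelium, which takes up this membrane, burns its fatty acids and releases ketone bodies towards the photoreceptors.

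The depth was 647712 to 5172156 counts assigned to genes per library, where a read pair counts once for each gene it overlaps. The cone list of 12 markers took 3.71% to 9.76% of the counts and the rod list of 11 markers, which includes Sag (also made by cones), took 1.01% to 2.51%. Txnip itself was at 0 to 3 counts in every control library and at 663 to 8536 counts in every Txnip library, a check of the labels that includes reads from the vector. C57BL/6J control 1 and C57BL/6J Txnip 2 stood apart in the shares of the Müller glia list (0.0973% and 0.0696%), the bipolar list (0.0384% and 0.0455%) and the endothelium list (0.0044% and 0.0052%), so the strain and C57BL/6J comparisons are also given without them.

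The genome stretches just before the RefSeq start sites are given for some of the genes that differed between the strains. RefSeq promoters (build GRCm38.p6) were found for 29 of the 35 genes. Shown are the 4 genes called between the strains that have a single listed start and at least 100 bases before it free of annotated exons, which leaves out Fabp3, Acsl1 and Acat1. Capitals mark a match, on either strand, to AGGTCA, the core site of many nuclear receptors, or to TAATCC, a site of the photoreceptor factors CRX and OTX. The sequences run 5′ to 3′ on the strand of the gene.
Acaa1a (+ strand, chr9:119341160-119341293): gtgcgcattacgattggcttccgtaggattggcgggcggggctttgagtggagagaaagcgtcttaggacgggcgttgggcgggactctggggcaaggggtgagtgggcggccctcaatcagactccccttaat
Eci1 (+ strand, chr17:24426433-24426682): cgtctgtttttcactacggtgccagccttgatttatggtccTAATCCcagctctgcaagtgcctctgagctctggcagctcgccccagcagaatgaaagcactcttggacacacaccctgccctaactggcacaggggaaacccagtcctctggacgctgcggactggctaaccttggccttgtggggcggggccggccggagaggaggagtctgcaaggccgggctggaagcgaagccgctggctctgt
Acadvl (- strand, chr11:70015429-70015678): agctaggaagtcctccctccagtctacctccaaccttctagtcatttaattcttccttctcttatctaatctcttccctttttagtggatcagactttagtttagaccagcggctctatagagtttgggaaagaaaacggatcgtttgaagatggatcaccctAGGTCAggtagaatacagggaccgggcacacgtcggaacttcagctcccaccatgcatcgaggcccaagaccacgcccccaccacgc
Acsl4 (- strand, chrX:142390536-142390785): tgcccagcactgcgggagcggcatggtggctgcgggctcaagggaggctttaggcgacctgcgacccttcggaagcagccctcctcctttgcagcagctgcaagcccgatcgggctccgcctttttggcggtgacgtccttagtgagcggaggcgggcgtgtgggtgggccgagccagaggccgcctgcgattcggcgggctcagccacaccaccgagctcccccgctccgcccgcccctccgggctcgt

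Over the 250 bases before each start, TAATCC stood in 6.25% of all 32851 promoters and in 2 of the 29 listed genes with a promoter, Eci1 and Acaa1a, where the match of Acaa1a lies in an annotated exon further out and is not printed. AGGTCA stood in 14.0% of all promoters and in 7 of the 29 genes (Acadm, Acadvl, Acsl6, Cd36, Cpt1a, Cpt1c and Echs1). The longer element of the estrogen-related receptors, TCAAGGTCA, which overlaps AGGTCA, stood in 0.387% of all promoters and in Acsl6 of the list. The element of the PPAR receptors, a direct repeat of AGGTCA with 1 base between the copies, stood in 0.0335% and in 0 of the 29. These matches describe letters in a window and say nothing of binding.

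Cones expressed genes of most steps of the pathway. Levels between genes are given as TMM-normalized CPM, the counts scaled to a common library total, per kilobase of exon (CPM per kb), with the mean ± SD over the 18 libraries. Acadvl, the very-long-chain acyl-CoA dehydrogenase, had the highest level of the list, 78.6 ± 10.5. Of its exonic bases, 42.9% are shared with Dvl2 on the other strand, and the counting did not use strand, so its level may include reads of Dvl2. Cpt1a, the liver form of the enzyme that opens the carnitine shuttle, followed at 55.2 ± 7.5, and Acadm, the medium-chain dehydrogenase, at 46.3 ± 6.8. Only 5.27% of the 14751 genes kept in the fit of all libraries lay above Cpt1a. In all, 22 of the 35 genes lay above the median of the genes kept, 5.21, and 5 were in the top 10%.

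**Figure D1:**
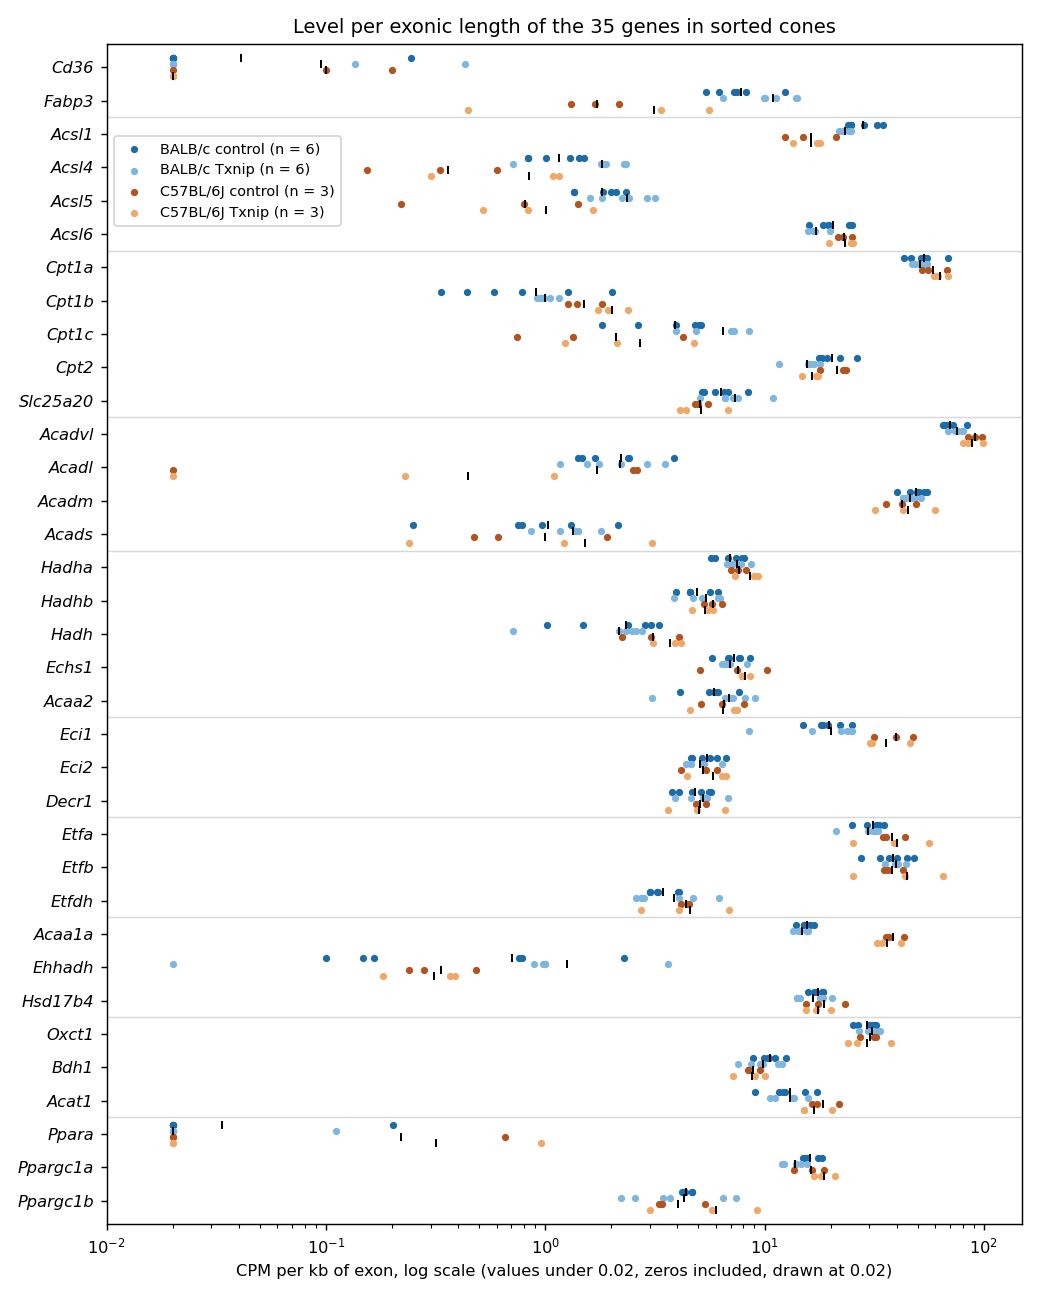
Level per exonic length of the 35 genes in each library. The x axis is CPM per kb of exon on a log scale, the y axis the genes in order of their role, points are libraries coloured by group, black ticks are group means, and grey lines part the roles. Acadvl, Cpt1a and Acadm sit highest, and Cd36 and Ppara, at or near 0, lowest.

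Among the uptake genes, Fabp3, the heart form of the fatty acid binding proteins, was at 7.07 ± 4.28 CPM per kb. Cd36, a fatty acid carrier of the cell surface, had 0 to 2 counts and was at 0 in 13 of the 18 libraries. A count of 0 allows up to 3 counts, which is 0.582 to 4.65 CPM depending on the library and covers counting error only.

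Of the 4 activating enzymes of the list, Acsl1 (22.6 ± 5.9) and Acsl6 (20.3 ± 3.5), a form known from brain, were highest on the CPM per kb scale. Acsl3, an activating enzyme outside the list, was not put on this scale. It was at 100.8 ± 52.8 CPM in BALB/c controls and 96.2 ± 13.2 CPM in C57BL/6J controls. Acsl5 was at 1.70 ± 0.79 and Acsl4, which prefers polyunsaturated chains, at 1.19 ± 0.66.

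In the carnitine shuttle, Cpt1a stood far above its relatives. The ratio of Cpt1a to Cpt1c, the form of neurons, per length and within a library, had a median of 11.2 in BALB/c controls, 7.69 in BALB/c Txnip, 50.8 in C57BL/6J controls and 32.4 in C57BL/6J Txnip libraries. It ran from 5.95 to 74.6, and the lowest value of each C57BL/6J group, 12.3 in both, was in control 1 and Txnip 2, the libraries that stood apart. That of Cpt1a to Cpt1b, the muscle form, had a median of 47.3, with 81.4% of the exonic bases of Cpt1b shared with the gene Gm44502 of the same strand. Cpt2, which takes the acyl group back from carnitine inside the mitochondrion, was at 18.3 ± 3.5 and Slc25a20, the carrier between the 2 enzymes, at 6.26 ± 1.64.

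**Figure D2:**
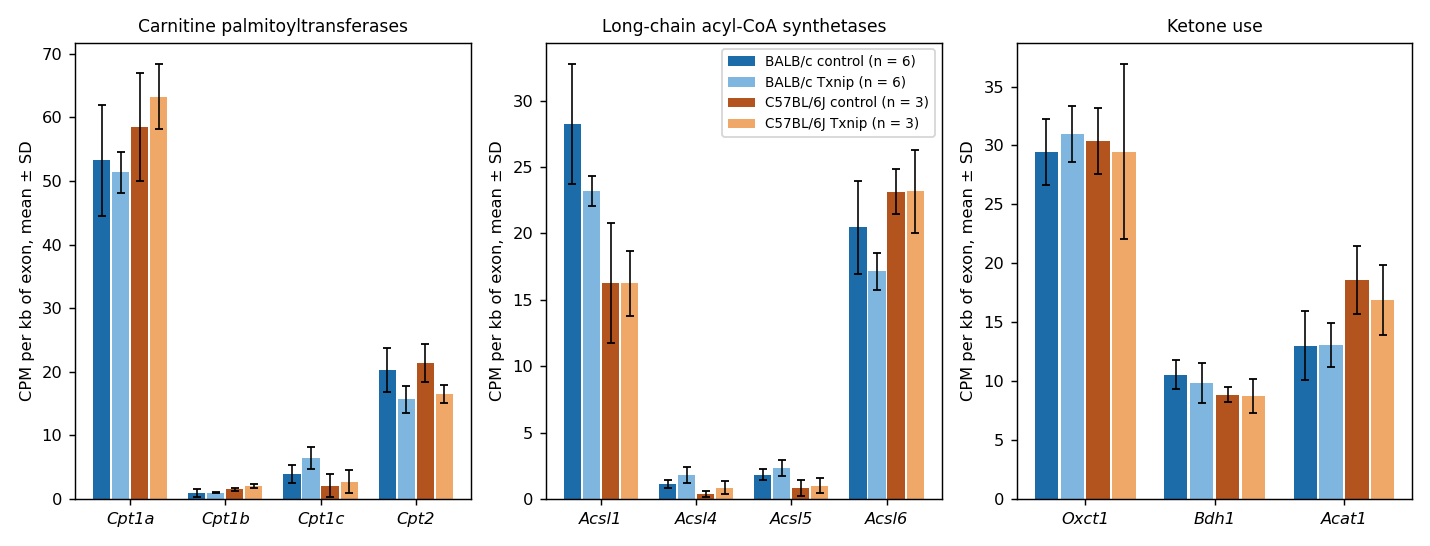
Levels of 3 families by group. Each panel has CPM per kb of exon on the y axis, and bars are means with SD for BALB/c control and Txnip (n = 6 each) and C57BL/6J control and Txnip (n = 3 each). Cpt1a stands above Cpt1b and Cpt1c in every group, and Acsl1 is above Acsl6 in BALB/c and below it in C57BL/6J.

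The chain-length dehydrogenases were uneven. Acadl, the long-chain enzyme, was at 1.83 CPM per kb with 0 to 40 counts and at 0 in 2 libraries, both C57BL/6J, and Acads, the short-chain enzyme, at 1.21 ± 0.71. The ratio of Acadvl to Acadl per length ran from 17.1 to 351 in the 16 libraries in which Acadl had a count. The value of 351 is from a C57BL/6J Txnip library with Acadl at 0.461 CPM, under the floor of 3 counts, so it is not exact. The later steps lay below Acadvl and Acadm and above Acadl and Acads, with Hadha and Hadhb, the 2 subunits of the trifunctional protein, at 7.53 ± 0.95 and 5.29 ± 0.81, Echs1 (the hydratase) at 7.36 ± 1.18, Acaa2 (the thiolase) at 6.42 ± 1.54 and Hadh (the dehydrogenase of shorter chains) at 2.65 ± 0.94. The exonic length is the union over all transcripts, 8730 bases for Hadha and 8286 for Echs1, so a gene with rarely used exons is understated on this scale. The ratio of Hadha to Hadhb, which are transcribed from neighbouring starts on opposite strands, was 1.45 ± 0.27.

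For unsaturated chains, Eci1, the mitochondrial enoyl-CoA isomerase, was at 25.9 ± 10.4, Eci2 at 5.37 ± 0.84 and Decr1, the dienoyl-CoA reductase, at 5.04 ± 0.87. Etfa (33.3 ± 7.7) and Etfb (39.9 ± 8.5), the subunits of the electron transfer flavoprotein, were high and close to each other, but 53.0% of the exonic bases of Etfb are shared with Gm45233. Etfdh, which accepts their electrons, was at 3.92 ± 1.18. In the peroxisome, Acaa1a, a thiolase, was at 22.6 ± 11.1 and Hsd17b4, the D-bifunctional protein, at 17.4 ± 2.4, whereas Ehhadh, the L-bifunctional protein, was at 0.760 ± 0.898 and had 0 to 14 counts.

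All 3 genes of ketone use were expressed. Oxct1, the enzyme that commits acetoacetate to use, was at 30.1 ± 3.4 CPM per kb, Acat1, the thiolase that splits acetoacetyl-CoA, at 14.6 ± 3.3, and Bdh1, the hydroxybutyrate dehydrogenase, at 9.74 ± 1.45. Oxct1 exceeded Bdh1 per length in every library, by 2.27 to 4.42 times. Of the regulators, the coactivators Ppargc1a (15.8 ± 2.3) and Ppargc1b (4.57 ± 1.75) were expressed. Ppara, the receptor that drives these genes in liver, was at 0 in 14 of 18 libraries, and its highest counts, 7 and 10, were in C57BL/6J control 1 and Txnip 2, the 2 libraries highest in Müller glia markers. Fewer cells of another type and less RNA per cell cannot be told apart in such pooled samples.

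Between control cones of the 2 strains, Acaa1a, Eci1, Acat1 and Acadvl were higher and Fabp3, Acsl4 and Acsl1 lower in C57BL/6J. Of the 35 genes, 32 had enough counts to be tested in the fit of all 4 groups, and 7 passed an adjusted p of 0.05 in edgeR's quasi-likelihood test, 4 higher and 3 lower in C57BL/6J. Over all genes tested 17.5% were called, 8.03% higher and 9.52% lower in C57BL/6J, so that the 21.9% of the list is near the background. The median log2 fold change was 0.08 over the 32 genes and -0.00 over all genes tested. The 3 genes not tested were Cd36, Ehhadh and Ppara.

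**Figure D3:**
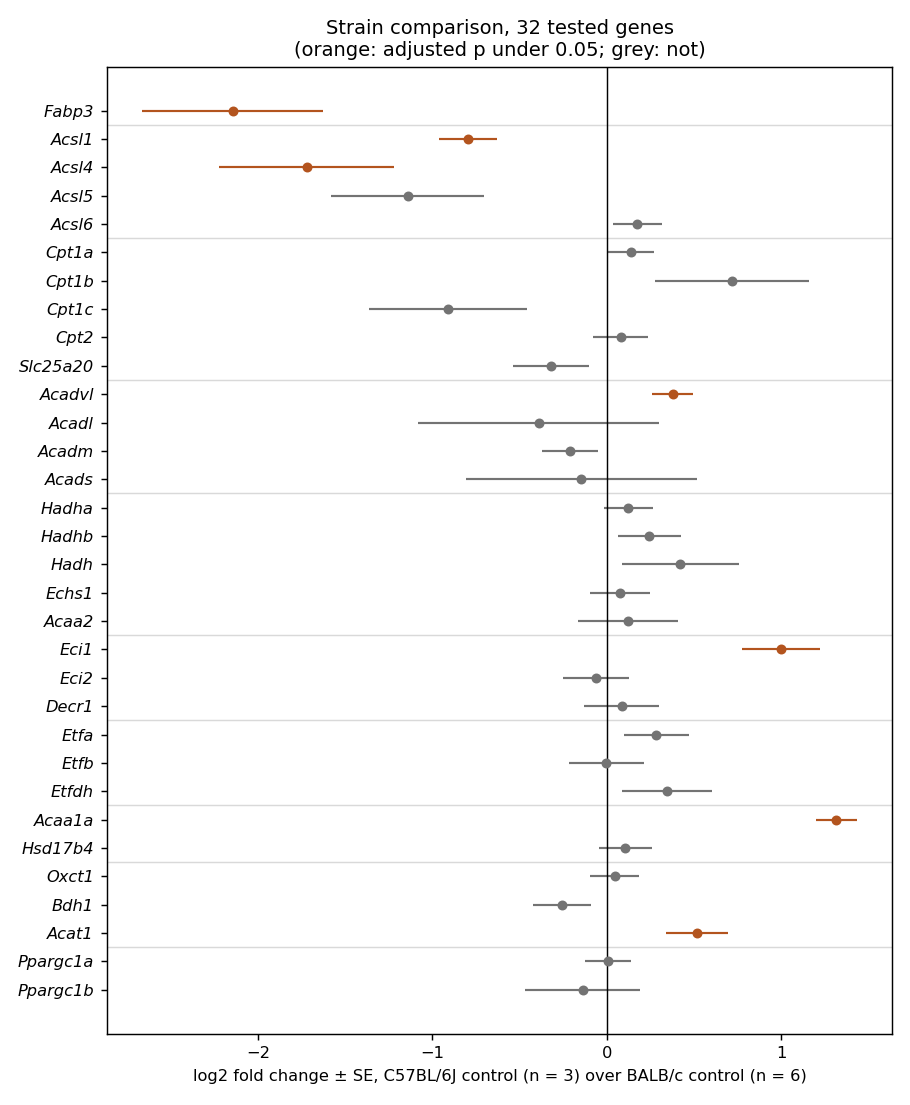
Difference between control cones of the strains for the 32 tested genes. The x axis is the log2 fold change ± SE of C57BL/6J (n = 3) over BALB/c (n = 6), and the y axis lists the genes by role. Acaa1a and Eci1 lie farthest to the right of the called genes (orange) and Fabp3 and Acsl4 farthest to the left.

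Acaa1a, the peroxisomal thiolase (chr9:119339676-119350299, + strand), showed the largest rise. Its level was 61.6 CPM in the lowest, 68.9 in the median and 73.8 in the highest BALB/c control, and 158, 164 and 191 CPM in the 3 C57BL/6J controls. The groups did not overlap. The level in C57BL/6J was 2.49-fold higher (log2 fold change 1.32 ± 0.12 SE, adjusted p = 3.7e-08). The Txnip libraries, from other retinas that may share mice with the controls, showed the same step, at 59.3 to 69.7 CPM in BALB/c and 143, 151 and 185 CPM in C57BL/6J. Its near relative Acaa1b had 1 to 24 counts, and pairs that aligned to both may be missing from either gene.

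Eci1, which shifts double bonds so that unsaturated chains can be oxidized (chr17:24426683-24439316, + strand), was at 16.4, 20.7 and 27.4 CPM in the lowest, median and highest BALB/c control and at 34.4, 43.6 and 51.8 CPM in the C57BL/6J controls. Again the groups did not overlap, and the fold was 2.00 (log2 fold change 1.00 ± 0.22, adjusted p = 0.0033 by edgeR). Eci2 and Decr1, the other 2 genes for unsaturated chains, had log2 fold changes of -0.06 ± 0.19 and 0.09 ± 0.22 and were not called.

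Fabp3 (chr4:130308595-130315463, + strand) had the largest fall. It was at 4.44, 6.06 and 10.2 CPM in the lowest, median and highest BALB/c control and at 1.08, 1.39 and 1.79 CPM in the C57BL/6J controls, which had only 3 to 5 counts each. The groups did not overlap, and the log2 fold change was -2.15 ± 0.52 (adjusted p = 0.0057 by edgeR). Of its exonic bases, 9.84% are shared with Zcchc17 on the other strand, whose own log2 fold change was -0.21 ± 0.19. In the Txnip libraries Fabp3 was at 5.31 to 11.6 CPM in BALB/c and at 0.367, 2.77 and 4.61 CPM in C57BL/6J.

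Acsl1 (chr8:46471037-46536051, + strand), the more abundant of the 2 called synthetases, was at 252, 279 and 363 CPM in the lowest, median and highest BALB/c control and at 130, 158 and 223 CPM in the C57BL/6J controls. It was 1.74-fold lower in C57BL/6J without overlap (log2 fold change -0.80 ± 0.16, adjusted p = 0.0015 by edgeR). Gm45244 on the other strand shares 9.91% of the exonic bases of Acsl1 and had a log2 fold change of -1.18 ± 0.43, and what it adds was not tested. Acsl6 did not pass the test (0.18 ± 0.14). Per length, the ratio of Acsl1 to Acsl6 within a library was 1.17 to 1.68 in the 12 BALB/c libraries and 0.573 to 0.851 in the 6 C57BL/6J libraries. The order of these 2 genes thus turned between the strains.

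Acsl4 (chrX:142317993-142390535, - strand) was at 4.53, 6.24 and 8.15 CPM in the lowest, median and highest BALB/c control and at 0.832, 1.79 and 3.24 CPM in the C57BL/6J controls, again with few counts (3 to 9). The log2 fold change was -1.72 ± 0.50 (adjusted p = 0.020 by edgeR). The call was lost without C57BL/6J control 2 or control 3, and over the libraries left out in turn the adjusted p ran from 0.0098 to 0.128. Without C57BL/6J control 1 and Txnip 2 the log2 fold change was -2.31. Acsl5 was at 8.87 ± 1.95 CPM in BALB/c and 3.93 ± 2.89 in C57BL/6J controls and did not pass (log2 fold change -1.14 ± 0.44, adjusted p = 0.076 by edgeR).

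Acadvl and Acat1 were called with smaller rises. Acadvl was at 175, 181 and 225 CPM in the lowest, median and highest BALB/c control and at 227, 246 and 264 CPM in the C57BL/6J controls (log2 fold change 0.38 ± 0.12, adjusted p = 0.028 by edgeR). For Dvl2, which shares exonic bases with it, the values were 0.33 ± 0.13 and an adjusted p of 0.072 in edgeR, and what Dvl2 adds to the difference was not tested. Acat1 was at 34.0, 46.2 and 65.2 CPM in the lowest, median and highest BALB/c control and at 61.9, 65.2 and 82.1 CPM in the C57BL/6J controls, which overlapped (log2 fold change 0.52 ± 0.18, adjusted p = 0.048 by edgeR). Each of these 2 calls was lost in 7 of the 9 fits that left out 1 control library, with an adjusted p of up to 0.150 for Acadvl and 0.258 for Acat1. That of Acadvl held without BALB/c control 5 or C57BL/6J control 3, and that of Acat1 without BALB/c control 2 or 4. Of the 11 other alternatives, 4 ended the call of Acadvl (adjusted p up to 0.204) and 8 that of Acat1 (up to 0.175), DESeq2 among them for Acat1 and the control libraries fitted alone for both. Between the Txnip libraries of the strains, Acadvl (0.22), Acat1 (0.37) and Acsl4 (-1.10) were not called. There Acsl6 and Ppargc1a were called as higher and Acsl5 and Cpt1c as lower in C57BL/6J, besides Acaa1a, Eci1, Fabp3 and Acsl1 (8 in all). Over all genes 17.6% were called in that comparison.

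**Figure D4:**
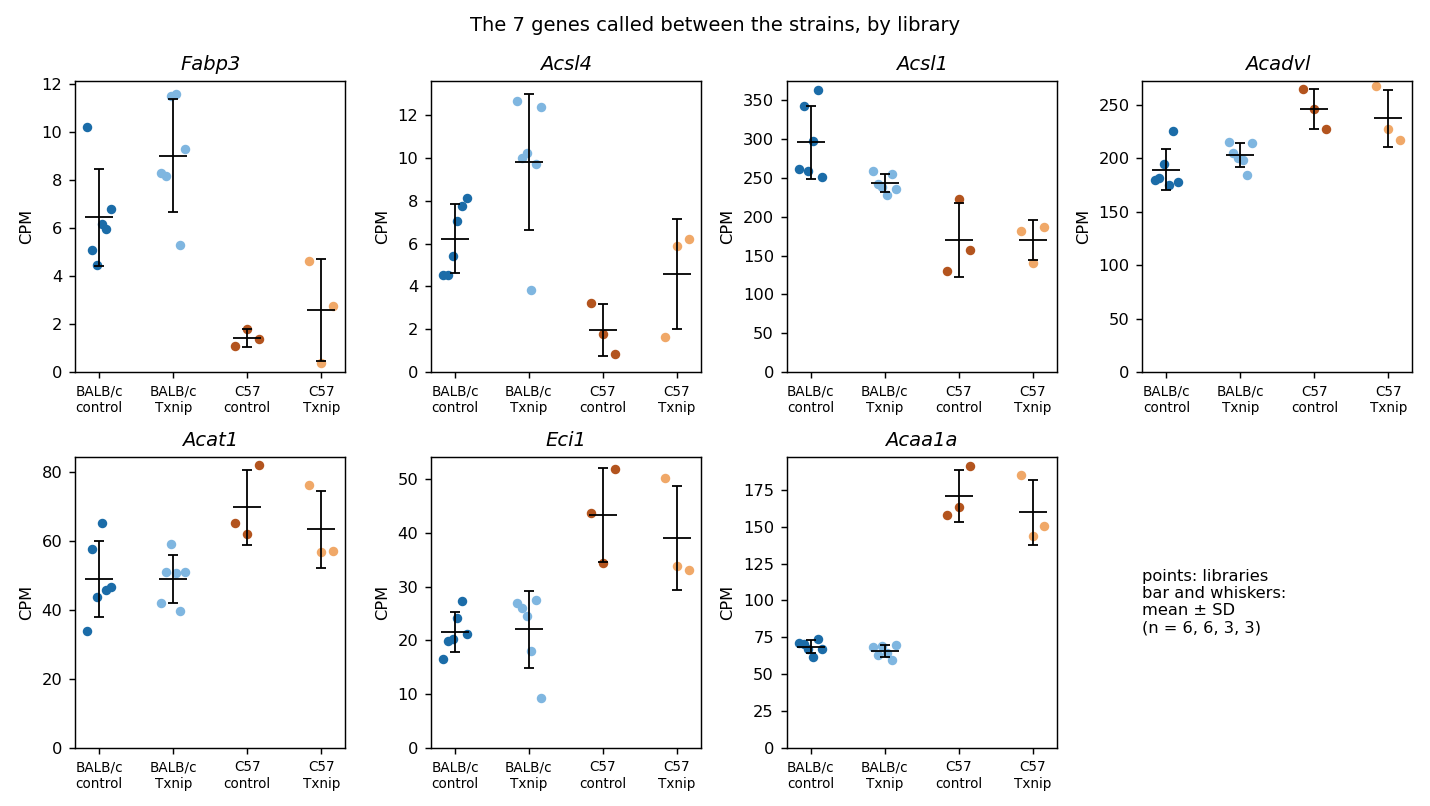
The 7 genes called between the strains, by library. Each panel has CPM on the y axis and the 4 groups on the x axis (n = 6, 6, 3 and 3), points are libraries and bars with whiskers are mean ± SD. Acaa1a and Eci1 are higher in all C57BL/6J libraries than in any BALB/c library, and Acsl1 is lower.

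Cpt1a and Oxct1 did not pass the test between the strains. Cpt1a was at 185, 229 and 294 CPM in the lowest, median and highest BALB/c control and at 224, 238 and 293 CPM in the C57BL/6J controls (log2 fold change 0.14 ± 0.14, adjusted p = 0.54 by edgeR). Oxct1 was at 93.7, 113 and 119 CPM in BALB/c and at 101, 117 and 119 CPM in C57BL/6J controls (0.05 ± 0.14, adjusted p = 0.86). The values of both genes overlapped between the strains. By role, in the control libraries, none of the 5 genes of the shuttle, of the 5 of the trifunctional protein and later steps, of the 3 of electron transfer or of the 2 tested regulators was called. Beside them, 1 of 4 chain-length dehydrogenases, 1 of 3 genes for unsaturated chains, 1 of 2 tested peroxisomal genes and 1 of 3 ketone genes rose, and 2 of 4 activating enzymes and the 1 tested uptake gene fell. Over all genes tested 17.5% were called, so these small counts do not set any role apart. The dehydrogenase and ketone calls are those of Acadvl and Acat1, lost in most fits with a library left out.

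Markers of other cells also differed between the control groups. All 7 genes of the ganglion cell list were called lower in C57BL/6J, where the list took 0.0028% to 0.0140% of the counts against 0.0505% to 0.141% in BALB/c. The list of the retinal pigment epithelium, at 0.0002% to 0.0004% against 0.0009% to 0.0016%, had a lower mean in 7 of 8 genes, and Rpe65 was at 0 in the C57BL/6J controls. The Müller glia list had a higher mean in 8 of 8 genes, at 0.0067% to 0.0973% against 0.0149% to 0.0263%, and 2 of its 7 tested genes were called. Of the amacrine list, 5 of 7 genes had a lower mean in C57BL/6J and 4 of the 6 tested were called, at 0.0112% to 0.0363% against 0.0279% to 0.0362%. Of the 11 rod genes, 7 had a higher and 4 a lower mean in C57BL/6J and 5 were called, the list being at 1.01% to 2.51% against 1.24% to 1.53%. The mean was higher in C57BL/6J in 10 of 12 cone genes and in 7 of 7 bipolar genes, with 4 of the 12 and 0 of the 7 called. Without C57BL/6J control 1 and Txnip 2, Acaa1a, Eci1, Fabp3, Acsl1 and Acsl4 were still called, Acadvl (log2 fold change 0.31) and Acat1 (0.55) were not, and Acsl5 and Cpt1c were called as lower. Over all genes 17.6% were called in that fit. The part of ganglion, amacrine and pigment epithelium RNA in the results was not tested.

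The wider pathway was read from 70 further genes of fatty acid and ketone metabolism, of which 59 were tested. Between control cones 5 were higher and 4 lower in C57BL/6J, 15.3% of those tested, against 17.5% of all genes. Esrrb, an estrogen-related receptor, rose from 7.95 ± 1.90 CPM (SD, n = 6) to 25.0 ± 12.1 (SD, n = 3; log2 fold change 1.67 ± 0.41 SE). Its log2 fold change was 1.19 without C57BL/6J control 1, with an adjusted p of 0.073 in edgeR, the highest over its alternatives. Decr2, the peroxisomal dienoyl-CoA reductase, rose from 23.4 ± 4.1 to 45.1 ± 6.0 CPM (0.93 ± 0.19), and Fabp4, a binding protein best known from fat cells, from 11.7 ± 2.5 to 21.7 ± 5.8 (0.88 ± 0.25). The call of Fabp4 was lost without C57BL/6J control 2 or 3, with an adjusted p of up to 0.125 by edgeR. It was also lost with all genes of at least 1 count in the fit (adjusted p = 0.051 by edgeR).

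The falls in this wider list were led by Acacb, the carboxylase that makes the malonyl-CoA which inhibits Cpt1. It was at 15.2 ± 4.7 CPM in BALB/c and 2.53 ± 1.99 in C57BL/6J controls (log2 fold change -2.58 ± 0.47), and without C57BL/6J control 2 the log2 fold change was -3.30. Abcd2, a peroxisomal importer of very long chains, fell from 62.9 ± 9.95 to 28.9 ± 5.5 CPM (-1.12 ± 0.18), and Pccb, a subunit of propionyl-CoA carboxylase, from 52.4 ± 7.2 to 25.7 ± 1.6 (-1.03 ± 0.19). The other calls included a rise of Acad8, a dehydrogenase of valine breakdown, and a fall of Fabp7, the brain form of the binding proteins.

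Txnip moved no gene of the list past the threshold in BALB/c cones. Of 12017 genes tested, 2 were called (0.0166%), Txnip and Gm15441, which overlaps it, and 0 of the 29 tested genes of the list passed (smallest adjusted p = 0.21 by edgeR). Before adjustment, 6 of the 29 had a p under 0.05, 2 higher and 4 lower, while 11.4% of all genes tested had such a p. DESeq2 called 78 genes and likewise 0 of the list. The 6 genes not tested were Cd36, Ppara, Ehhadh, Cpt1b, Acadl and Acads.

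**Figure D5:**
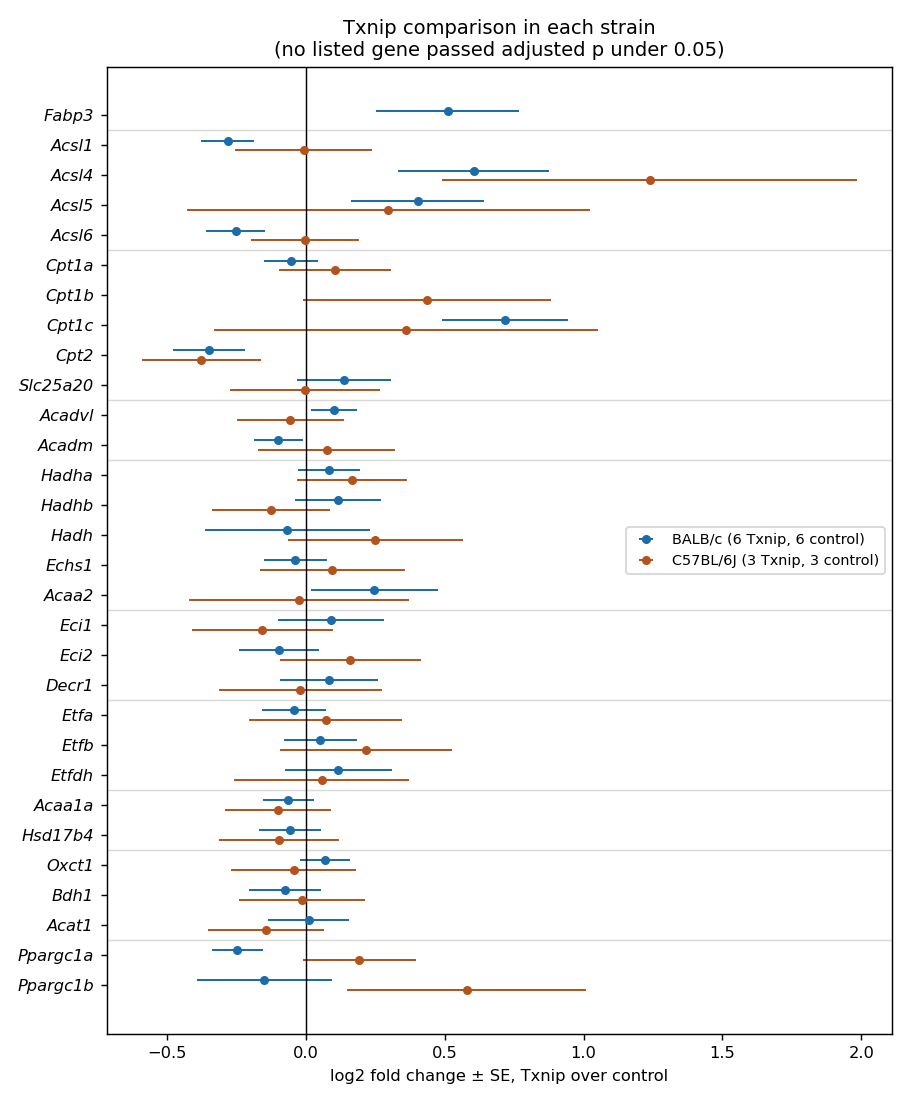
Txnip against control in each strain. The x axis is the log2 fold change ± SE, the y axis lists the tested genes by role, blue is BALB/c (6 Txnip and 6 control libraries) and orange C57BL/6J (3 and 3). Cpt2 lies at -0.35 in BALB/c and -0.38 in C57BL/6J and was called in neither, and the error bars of C57BL/6J are the wider ones for most genes.

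The largest positive value in BALB/c belonged to Cpt1c, which was at 10.2, 24.5 and 28.9 CPM in the lowest, median and highest control and at 22.1, 39.8 and 47.5 CPM in the Txnip libraries (log2 fold change 0.72 ± 0.23, adjusted p = 0.21 by edgeR). The groups overlapped. With all genes of at least 1 count in the fit its adjusted p was 0.0038, the one alternative that called it, and elsewhere it was between 0.086 and 0.83. Acsl4 was at 0.60 ± 0.27, with a control median of 6.24 and a Txnip median of 10.1 CPM.

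Cpt2 had the lowest log2 fold change, -0.35 ± 0.13 (adjusted p = 0.29 by edgeR). It was at 42.3, 44.7 and 63.1 CPM in the lowest, median and highest control and at 27.9, 38.2 and 43.0 CPM in the Txnip libraries. Acsl1 (-0.28 ± 0.10), Acsl6 (-0.25 ± 0.10) and Ppargc1a (-0.25 ± 0.09) made up the rest of those with an unadjusted p under 0.05. Cpt1a (-0.05 ± 0.10, 203 to 236 CPM with Txnip and 185 to 294 without) and Oxct1 (0.07 ± 0.09, 100 to 124 CPM with Txnip and 93.7 to 119 without) had overlapping groups and did not pass.

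The share of counts on the ribosomal RNA locus went along with some of these values in BALB/c. In C57BL/6J it ran from 3.31% to 27.8% in controls and from 5.73% to 27.2% with Txnip. There the strain difference of Acsl1 was -1.06 (log2) without control 2, at 27.8%, and -0.65 without control 1, at 3.31%. In BALB/c the share was 12.1% to 16.5% in the 6 Txnip libraries, 15.2% to 15.9% in controls 1, 3 and 6 and 6.10% to 8.84% in controls 2, 4 and 5. Acsl1 was at 252 to 261 CPM in controls 1, 3 and 6, at 298 to 363 CPM in controls 2, 4 and 5, and at 229 to 259 CPM with Txnip. With the log2 of this share as a covariate, an alternative added after the data were seen, 1 of the 29 genes, Cpt1c, had an unadjusted p under 0.05, against 5.93% of all genes. Under it the log2 fold change was -0.13 for Acsl1 and -0.07 for Acsl6, and -0.25 for Cpt2, -0.20 for Ppargc1a, 0.60 for Acsl4 and 0.50 for Cpt1c. The amacrine cell list also differed, at 0.0379% to 0.0518% of counts with Txnip and 0.0279% to 0.0362% without, higher in the mean of 6 of its 7 genes, and its part in the results was not tested.

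In C57BL/6J cones Txnip likewise moved no gene of the list past the threshold. Of 12974 genes tested 2 were called (0.0154%), again Txnip and Gm15441. Of the 29 genes of the list that were tested, 0 were called and 0 had an unadjusted p under 0.05, against 0.748% of all genes. DESeq2 also called 0 of the list. The highest log2 fold change was that of Acsl4, 1.24 ± 0.75, from 0.832, 1.79 and 3.24 CPM in controls to 1.63, 5.87 and 6.23 CPM with Txnip. The lowest was that of Cpt2, -0.38 ± 0.21 (unadjusted p = 0.11, adjusted p = 1.0 by edgeR). It was at 43.0, 54.4 and 56.3 CPM in controls and 35.5, 41.2 and 41.8 CPM with Txnip. The biological coefficient of variation was 34.3% in this fit and 18.02% in the BALB/c fit.

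Cpt1a was at 224, 238 and 293 CPM in C57BL/6J controls and at 254, 266 and 296 CPM with Txnip (0.11 ± 0.20), and Oxct1 at 101, 117 and 119 CPM and at 88.8, 98.2 and 140 CPM (-0.04 ± 0.22). Neither passed the test, and both overlapped. Without C57BL/6J control 1 and Txnip 2, 0 of the 28 genes of the list then tested were called, and 2 of all 12765 genes. Of the 28, 0 had an unadjusted p under 0.05, against 0.956% of all genes. The log2 fold change of Cpt2 was then -0.39.

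The difference between the strains in the effect of Txnip was tested directly in the fit of 4 groups. Of 14751 genes 0 were called (0%), with 4.79% at an unadjusted p under 0.05, and DESeq2 called 0 genes. Among the 32 tested genes of the list 1, Ppargc1a, the coactivator of mitochondrial gene expression, had an unadjusted p under 0.05 (difference of log2 fold changes, C57BL/6J minus BALB/c, 0.44 ± 0.19, adjusted p = 0.94 by edgeR). Ppargc1a was at 99.1, 102 and 121 CPM in the lowest, median and highest BALB/c control and at 79.6, 91.6 and 103 CPM with Txnip, and at 89.7, 109 and 123 CPM in C57BL/6J controls and 110, 120 and 138 CPM with Txnip. The differences for Cpt1a (0.16 ± 0.19) and Oxct1 (-0.11 ± 0.20) were within their errors. Without C57BL/6J control 1 and Txnip 2, 2 genes were called and 0 of the list. Ppargc1a then had a difference of 0.41 and no unadjusted p under 0.05, and Acadl had one, with 5.97% of all genes. Of the 70 further genes, 0 were called in either Txnip comparison. The lowest log2 fold change among them in BALB/c was that of Acsl3, an activating enzyme, at 100.8 ± 52.8 CPM in controls and 38.3 ± 20.1 with Txnip (-1.34 ± 0.33, adjusted p = 0.11 by edgeR), with overlapping groups. It was at 44.2 to 71.0 CPM in controls 1, 3 and 6, at 124.5 to 164.9 in controls 2, 4 and 5, the 3 with the lower ribosomal RNA share, and at 21.8 to 76.2 with Txnip. With that share as a covariate the log2 fold change was -0.55 (adjusted p = 0.86 by edgeR), whereas it was called without Txnip 1 (-1.75, adjusted p = 0.0068 by edgeR) and with all genes of at least 1 count (-1.34), fits that called 258 and 1400 genes in all. Over the remaining alternatives its adjusted p lay between 0.063 and 0.34. In C57BL/6J it was at 96.2 ± 13.2 and 111.7 ± 15.5 CPM (0.21 ± 0.20), and the difference of the 2 was 1.57 ± 0.53 (adjusted p = 0.91 by edgeR), called in the fit of all genes of at least 1 count alone among the alternatives. Before adjustment, 7 of the 56 tested in BALB/c cones had a p under 0.05, which is 12.5% beside the 11.4% of all genes, and 0 of the 55 tested in C57BL/6J cones, beside 0.748%.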

How the data were processed

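Cone RNA was amplified with a modified Smart-Seq2 protocol. The deposited values are raw counts: per the file headers, featureCounts 1.6.2 assigned fragments to Ensembl 94 exons (GRCm38). The submitters' processing notes also name STAR, with no version given in the sources used here. The deposited command counted a pair for each gene it overlapped and used no strand, and the reference genome is that of C57BL/6J, so strain effects on alignment cannot be told apart from expression. The authors' DESeq2 tables of called genes were not used.

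Tests used edgeR 4.0.16 under R 4.3.3 (filterByExpr, TMM, glmQLFit, glmQLFTest, Benjamini-Hochberg over all genes tested, threshold 0.05). Txnip was compared with control within each strain, and strains and the difference of Txnip effects in 1 fit of 4 groups. DESeq2 1.42.0 was an alternative. Log2 levels used a prior count of 2, and levels between genes were divided by exonic length. The fits were tested on simulated counts. Depth was 647712 to 5172156 counts, and floors of 3 counts cover counting error only.

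The 35 genes and all lists were chosen with earlier results of these data known. Named are the levels of all 35 genes, every gene called between the strains, the largest rise and fall and any unadjusted p under 0.05 in each Txnip comparison, Cpt1a and Oxct1 throughout, and the 3 largest rises and falls called in the wider list. Genes named outside this rule (Acsl5, Cpt1c and Acsl6 between the strains, Ppargc1a between the Txnip libraries, Acadl in the difference of Txnip effects, Acsl3, Eci2, Decr1, Acad8 and Fabp7) were chosen after their values were seen, and 1 further call of the wider list is not reported here. Other alternatives were DESeq2 size factors, 2 filters on low counts, mitochondrial and ribosomal RNA locus genes left out, rod share as a covariate, the replicate number as a block and libraries left out. Covariates for the rod share without Sag and for the ribosomal RNA locus, and leaving out 2 C57BL/6J libraries at once, were added after the data were seen. No 2 libraries of a group agreed within sampling noise (smallest chi-square per degree of freedom 1.91 over 36 pairs).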

Additional observations from a re-analysis of the deposited data

Results flagged for a closer look

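In the BALB/c groups of 6 libraries, the gap of the highest or lowest library to its neighbour was over 0.625 of the group's range on the log2 scale in 7 of 64 groups of values, where chance gives about 1 in 20, and all 7 were in Txnip libraries. Txnip 6, the shallowest library, was low for Cpt2 (27.9 CPM from 18 counts against 37.7 to 43.0 in the others, gap 0.692), for Acaa2 (4.65 CPM from 3 counts against 10.004 to 13.7, gap 0.698) and for Etfa (38.7 CPM from 25 counts against 54.2 to 60.4, gap 0.758). Hadh was low in Txnip 5 (3.54 CPM from 4 counts against 10.9 to 13.7, gap 0.818), and Acsl4 was low in Txnip 4 (3.85 CPM from 6 counts against 9.73 to 12.7, gap 0.770). Echs1 was high in Txnip 3 (69.0 CPM against 53.3 to 57.9, gap 0.677), and Acsl6 was high in Txnip 1 (196 CPM against 157 to 168, gap 0.699). Groups of 3 were not examined in this way.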

How the results depend on the processing

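Genes with few counts, such as Fabp3 and Acsl4 in C57BL/6J controls, rest on 3 to 9 counts a library, and the Txnip comparison in C57BL/6J has 3 libraries a group. Acaa1a, Eci1, Fabp3 and Acsl1 were called between the strains in each of the alternatives that tested them.

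In BALB/c the number of genes called with Txnip was 78 with DESeq2 (20 higher, 58 lower), 1400 with all genes of at least 1 count (165 higher, 1235 lower), 0 with at least 10 counts in every library, which drops Txnip itself, and 2 to 258 with a library left out (258 without Txnip 1, 23 without control 1 and 6 without Txnip 2), and the number called from the list was 0 throughout except for 1, Cpt1c, with all genes of at least 1 count. In C57BL/6J it was 5 and 0 genes under those 2 filters. Between strains, at least 10 counts in every library gave 1507 genes and 3 of the list, and leaving out a library gave 1605 to 2489 genes (1605 without C57BL/6J control 3) and 4 to 7 of the list (4 without C57BL/6J control 2). For the difference of Txnip effects, all genes of at least 1 count gave 186 genes, the 2 C57BL/6J libraries left out gave 2, and 1 library left out gave 0 to 1, with 0 of the list. The causes were not tested.

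Values near 0 changed sign, none of them called. With a library left out, Cpt1a ran from -0.10 to 0.025 for Txnip in BALB/c and from -0.010 to 0.21 between strains, and Oxct1 from -0.30 to 0.057 for Txnip in C57BL/6J, from -0.015 to 0.11 between strains and from -0.34 to 0.0064 for the difference of Txnip effects (log2). Between the Txnip libraries of the strains Oxct1 was at -0.066.

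The replicate number as a block gave 3 genes called in BALB/c and 2 in C57BL/6J and 0 of the list in both. Libraries of the same number deviated together with correlations of -0.18 to 0.24 in BALB/c and -0.01 to 0.20 in C57BL/6J, and 0 of 6 and 0 of 3 numbers correlated best with themselves, so the numbers were not taken to pair them.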
